A study of Mus musculus with 15 samples.

Results

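The 10 genes described here encode growth factors with the HGF and MIF axis: the ligands Hgf, Mif, Igf1, Vegfa, Vegfb, Pdgfb, Pdgfc, Hbegf and Areg, and the HGF receptor Met. They were taken by symbol from a table of 55335 genes, with every sample used. RNA-seq levels were measured in tumor-associated macrophages (TAMs), sorted as CD11b and F4/80 positive cells from orthotopic tumors of Hepa1-6, a mouse hepatoma cell line carrying a lentiviral luciferase. The tumor cells were injected into the liver of C57BL/6 mice and the tumors were taken 3 weeks later. There were 5 samples each of TAMs from tumors of control cells, of cells with stable lentiviral overexpression of miR-144, and of cells with stable lentiviral overexpression of miR-451a, and no further treatment is named for any group. The miRNAs were overexpressed in the tumor cells and not in the TAMs, and the host mice kept their own immune cells. The age of the mice, and whether the 5 samples of a group came from separate mice, were not given in the sources used here, so the p-values measure the spread between these samples, which may be technical. A figure legend of the study gives fewer replicates for this sequencing than the labels list samples, so that samples of a group may share a mouse, and the p-values would then be too small. The comparison of the groups addresses how tumor cells that carry more of either miRNA change the macrophages around them.

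Growth factors of these families are secreted or membrane-bound proteins that act through receptors on neighbouring cells. HGF, made largely by mesenchymal cells, signals through the receptor tyrosine kinase MET and drives growth and movement of epithelial cells such as hepatocytes. MIF is a cytokine that binds CD74 and restrains the random migration of macrophages. IGF1, VEGFA and PDGFB are well known products of macrophages in tissue repair and in tumors, where they act on stromal cells, blood vessels and the pericytes that cover them.

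The mature miRNA sequences are shown because the groups were defined by them. They come from RefSeq on GRCm38.p6, the seed (bases 2 to 8 from the 5′ end) is in capitals, and all lie on the plus strand of chromosome 11, at chr11:78073047-78073066, chr11:78073010-78073032 and chr11:78073186-78073207 in the order listed.
mmu-miR-144-3p: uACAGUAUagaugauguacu
mmu-miR-144-5p: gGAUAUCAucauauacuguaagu
mmu-miR-451a: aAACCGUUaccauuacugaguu
No seed was shared among them. The 7 letters that pair with each seed were looked for on the transcribed strand in the longest annotated 3′ UTR of each of the 10 genes in GENCODE M21. Neither Hgf (1159 bases of UTR) nor Mif (124 bases) held any of the 3 words in this window. Met held the only match, ATACTGT for miR-144-3p at bases 2149 to 2155 of a UTR of 2157 bases, shown here with the match in capitals on the plus strand of GRCm38 at chr6:17573962-17573980.
Met: aacatcttgtATACTGTga
Of 21037 genes with an annotated UTR, whose lengths differ, 11.9% held the miR-144-3p word ATACTGT. The miR-144-5p word TGATATC was found in 6.12% of them. The miR-451a word AACGGTT was found in 1.75%. With the shorter word TACTGT (bases 2 to 7 of miR-144-3p, a search added after the data were seen), which occurs in 33.8% of the UTRs, Met held 2 matches, Igf1 held 3, Vegfa held 1 and Hgf and Mif held 0. A match is a description of letters and was not tested as a target site. The rows of Mir144 and Mir451a themselves were listed at 0 in all 15 samples, and this table measures longer transcripts, so it gives no check of the overexpression.

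The values are FPKM, fragments scaled to transcript length and to the mapped fragments of the sample, so levels of different genes can be set side by side per length. The steps between low values implied 15.5 to 30.3 M fragments per sample. All 8 macrophage markers had a mean of at least 1 FPKM in each group, with a summed level of 8680 to 9532 FPKM in control, 14666 to 16520 FPKM in miR-144 and 14349 to 15604 FPKM in miR-451a samples. Most of that sum was Lyz2 (means of 6894, 13171 and 12582 FPKM in control, miR-144 and miR-451a). In each comparison with control 6 of the 8 were called higher, Cd68 was called lower (means of 1444, 919 and 910 FPKM) and Itgam was not called. Itgam was listed under more than 1 gene identifier, and only the entry with the highest mean was used. That entry ranged from 28.4 to 93.2 FPKM over all samples, so the lack of a call says little. Of 10 hepatocyte and hepatoma markers 7 were at 0 in every sample, Alb included, and their summed level was 0.637 to 1.79 FPKM over all samples. Markers of other myeloid states moved with the groups. The 5 monocyte markers summed to 4014 to 5782 FPKM in control, 7.42 to 12.4 in miR-144 and 6.89 to 11.6 in miR-451a samples, the control sum being almost all Chil3, while Plac8 of the same list was called higher. The 9 neutrophil markers summed to 12.7 to 18.5, 3.4 to 4.9 and 3.87 to 6.64 FPKM, mostly Mmp8. The 5 Kupffer cell markers summed to 3.3 to 3.77, 17.1 to 50.1 and 16.0 to 47.3 FPKM, with Clec4f at 0 throughout and Cd5l at means of 3.40, 29.8 and 27.1 FPKM. Of the 9 T and NK cell markers Cd3e and Cd3g were at 0 throughout, whereas Cd4, which macrophages can also express, had means of 1.32, 6.86 and 7.16 FPKM. The part of these differences in the results below was not tested. The groups differed across much of the transcriptome. Of the 11419 genes whose mean reached 1 FPKM, 7668 were called between miR-144 and control and 7804 between miR-451a and control (limma on log2(FPKM + 1), Benjamini-Hochberg adjusted p under 0.05), and 70.1% and 70.3% of these calls were higher. After median centring the shares were 50.01% and 49.6%, after quantile normalization 52.3% and 52.3%, and after rescaling to TPM 76.5% and 77.3%. Over these 11419 genes the median change was 0.13 for miR-144 and 0.14 for miR-451a on the log2 scale, and each change of a gene past the filter is to be read against that shift. Genes under the filter, Met and Hbegf among them, were fitted with all 29540 genes above 0 in a sample, where the medians were 0.01 and 0.02. The labels name no batch, so a batch that follows the groups cannot be told apart from them.

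Among these genes, Pdgfb, Vegfa and Hgf were higher and Igf1 was lower in TAMs from both kinds of miRNA-overexpressing tumor than in control TAMs. Of the 10 genes, 7 passed the filter of a mean of 1 FPKM. In the miR-144 comparison 3 of the 7 were called higher, beside 47.1% of all tested genes, and 1 of the 7 was called lower, beside 20.1%. In the miR-451a comparison 4 of the 7 were called higher, beside 48.1%, the additional gene being Vegfb, and 1 of the 7 lower, beside 20.3%. The members' median log2 fold change was 0.09 for miR-144 and 0.11 for miR-451a, below the medians of all tested genes. The counts were therefore close to the background of the whole table. Of the 3 genes under the filter, Met and Hbegf were called lower in both comparisons in a fit over all 29540 genes above 0 in a sample, where 9.65% (miR-144) and 9.69% (miR-451a) of genes were called lower, and Areg was listed at 0 in every sample.

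**Figure D1:**
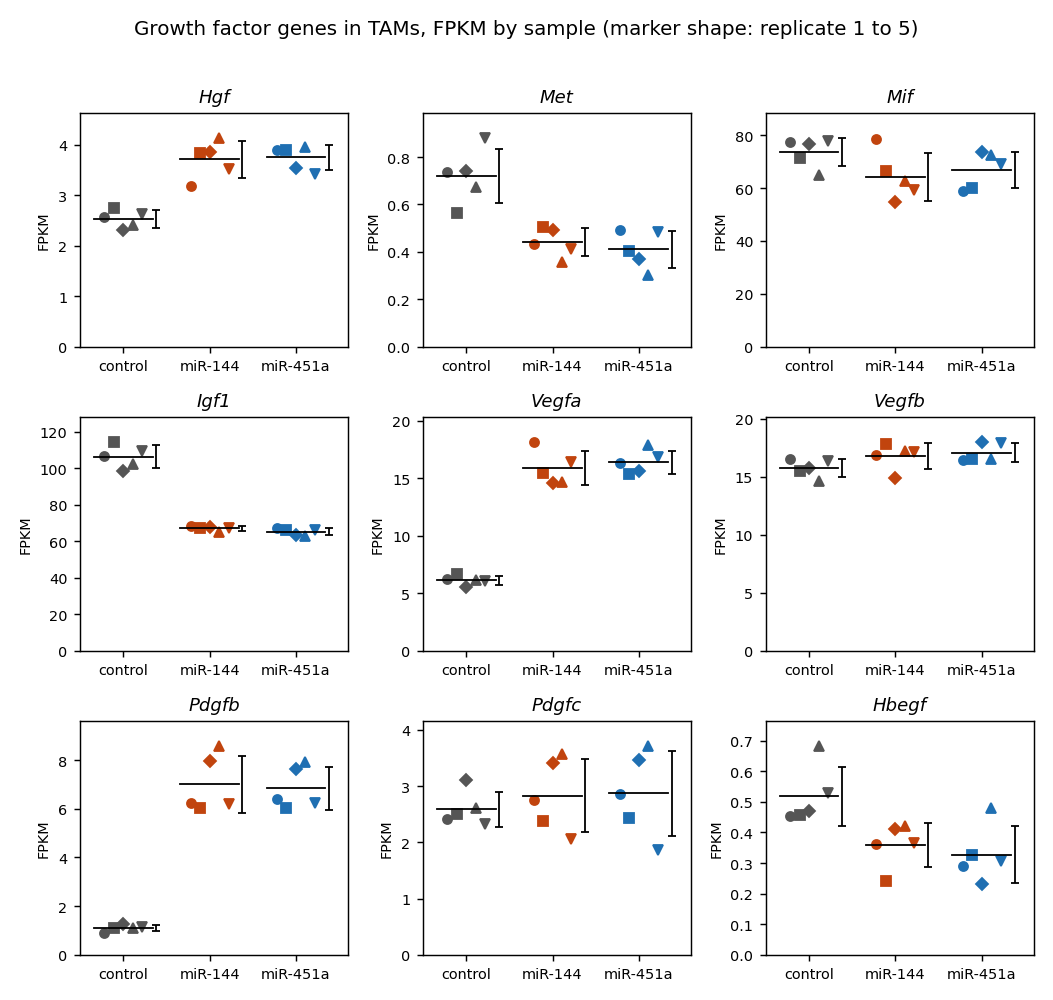
Level of 9 of the 10 growth factor genes in each sample, in FPKM on the vertical axis, for the control, miR-144 and miR-451a groups (5 samples each, marker shape for the replicate number, line for the mean, bar for the SD). Control samples stand apart from both miRNA groups for Hgf, Met, Igf1, Vegfa and Pdgfb and overlap with at least 1 of them for Mif, Vegfb, Pdgfc and Hbegf, while Areg was at 0 and is not drawn. The share of all genes that stand apart in this way was not computed.

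The order of levels also differed between groups. In control TAMs Igf1 had the highest mean (106 FPKM), followed by Mif (73.7), Vegfb (15.7), Vegfa (6.12), Pdgfc (2.59), Hgf (2.54), Pdgfb (1.11), Met (0.720) and Hbegf (0.518). Pdgfc and Hgf did not differ beyond their spread there, and the ranges of Met and Hbegf overlapped. In both miRNA groups Igf1 and Mif overlapped in level, as did Vegfa and Vegfb. Pdgfb moved from the seventh place to the fifth, and its mean exceeded that of 6.79% of tested genes in control, 52.3% in miR-144 and 51.2% in miR-451a TAMs.

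Hgf (ENSMUSG00000028864, chromosome 5, 16553495 to 16620152, plus strand) encodes hepatocyte growth factor. Control samples 1 to 5 had 2.57, 2.76, 2.31, 2.42 and 2.63 FPKM, miR-144 samples 3.19, 3.85, 3.85, 4.14 and 3.53 FPKM, and miR-451a samples 3.90, 3.91, 3.55, 3.96 and 3.43 FPKM. Every sample of both miRNA groups lay above every control sample. The mean was 2.54 ± 0.177 FPKM in control, 3.71 ± 0.364 in miR-144 and 3.75 ± 0.242 in miR-451a TAMs (SD, n = 5), 1.46 and 1.48 times control. On the log2(FPKM + 1) scale the rise was 0.41 ± 0.06 (SE, adjusted p = 1.17e-05, limma) with miR-144 and 0.43 ± 0.06 (adjusted p = 7.84e-06, limma) with miR-451a. It lay 0.28 and 0.29 above the median of all tested genes.

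In these bulk samples fewer cells of a type and less RNA per cell cannot be told apart. HGF is known as a product of stellate cells and fibroblasts, and the 10 markers of these cells summed to 129 to 165 FPKM in control, 215 to 295 FPKM in miR-144 and 249 to 322 FPKM in miR-451a samples, with no overlap between control and either miRNA group. Of the 6 that passed the filter, 4 were called higher with miR-144, beside 47.1% of all tested genes, and 6 with miR-451a, beside 48.1%, and 0 were lower. Acta2 had means of 28.2, 80.1 and 81.6 FPKM in the 3 groups and Col1a1 of 70.0, 102 and 124 FPKM, whereas Lrat, a defining stellate cell gene, was at 0 in all samples. Their part in the Hgf difference was not tested.

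Met (ENSMUSG00000009376, chromosome 6, 17463800 to 17573980, plus strand), the receptor for HGF, moved the other way at a low level. Control samples had 0.737, 0.565, 0.741, 0.673 and 0.882 FPKM, miR-144 samples 0.432, 0.506, 0.493, 0.359 and 0.413 FPKM, and miR-451a samples 0.490, 0.403, 0.368, 0.303 and 0.484 FPKM. The control samples were all above the others. The mean of 0.720 ± 0.115 FPKM (SD, n = 5) fell by 38.8% with miR-144 (log2 fold change −0.25 ± 0.05, SE, adjusted p = 0.00162, limma without filter) and fell by 43.1% with miR-451a (−0.29 ± 0.05, adjusted p = 0.000586), log2(FPKM + 1) values that understate the fall at this level. These levels rest on an implied 51.9 to 143 fragments per sample. Within a sample, Hgf was 3.61 ± 0.751 times Met in control, 8.58 ± 1.71 times in miR-144 and 9.49 ± 2.28 times in miR-451a TAMs (SD, n = 5), a ratio chosen after the values were seen and given without a test.

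The HGF axis list held 22 further genes, of activators, inhibitors and MET partners, and 10 passed the filter. With miR-144 4 were called higher and 4 lower, beside 47.1% and 20.1% of all tested genes (median 0.02, against 0.13 for all genes). With miR-451a 3 were higher and 4 lower, beside 48.1% and 20.3% (median 0.04, against 0.14). After median centring 2 were higher in each comparison, with 4 and 6 lower. The largest falls were those of Plaur and Cd44. Plaur, the urokinase receptor, had means of 15.1, 5.51 and 5.56 FPKM in control, miR-144 and miR-451a TAMs (−1.30 and −1.29, adjusted p = 2e-10 and 2.11e-10, limma). Cd44, which serves as a co-receptor for MET and for CD74, had means of 50.8, 22.3 and 22.5 FPKM (−1.15 and −1.14, adjusted p = 1.39e-11 and 1.51e-11). Plxnb2, a semaphorin receptor of the plexin B family that can associate with MET, rose from 65.0 to 141 and 143 FPKM (1.10 and 1.13, adjusted p = 2.85e-12 and 2.08e-12).

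Mif (ENSMUSG00000033307, chromosome 10, 75859353 to 75860240, minus strand) was the second most abundant of these transcripts in control TAMs and did not pass the test. Its control samples had 77.3, 71.6, 76.6, 65.1 and 77.9 FPKM, its miR-144 samples 78.7, 66.5, 54.7, 62.9 and 59.3 FPKM, and its miR-451a samples 59.1, 59.97, 73.7, 72.7 and 69.1 FPKM. All 3 groups overlapped, and the highest value of all was a miR-144 sample. The log2 fold change was −0.20 ± 0.09 with miR-144 (SE, adjusted p = 0.0662, 95% interval −0.39 to −0.0044) and −0.14 ± 0.09 with miR-451a (adjusted p = 0.184, interval −0.34 to 0.05, limma). After median centring Mif was called lower in both, by −0.33 (adjusted p = 0.00542) and −0.29 (adjusted p = 0.0136), and it was called lower with miR-144 without miR-144 sample 1 (−0.27, adjusted p = 0.0081) or control sample 4 (−0.24, adjusted p = 0.0352). Of the 50-base stretches of the Mif transcript, 51.1% also occur in other genes, mostly processed copies such as Gm10169 and Gm16379, so its level is uncertain, although none of these copies exceeded 1.49 FPKM in any sample.

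The MIF receptor and the MIF paralog were lower in both miRNA groups. Cd74, the MIF receptor and the invariant chain of MHC class II, ranged from 777 to 923 FPKM in control, 572 to 832 in miR-144 and 529 to 708 in miR-451a samples. The control and miR-144 ranges overlapped and the control and miR-451a ranges did not. It differed by −0.33 ± 0.10 (adjusted p = 0.00702) and −0.42 ± 0.10 (adjusted p = 0.00137, limma). Ddt, the paralog of Mif that also binds CD74, fell from 26.7 ± 2.52 FPKM (SD, n = 5) to 21.01 ± 1.58 with miR-144 (−0.33, adjusted p = 0.000564) and 19.6 ± 1.61 with miR-451a (−0.43, adjusted p = 5.42e-05).

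Among the chemokine receptors that bind MIF, Cxcr4 rose from 112 ± 2.47 FPKM (SD, n = 5) to 187 ± 13.6 with miR-144 (0.73, adjusted p = 8.9e-09) and 177 ± 12.7 with miR-451a (0.65, adjusted p = 3.19e-08). Cxcr2 was at most 0.146 FPKM in any sample. Ackr3 had at most 0.505 FPKM and was not called (adjusted p = 0.242 and 0.235, limma without filter). Of the 8 genes of the MIF axis list past the filter, 4 were higher and 4 lower in each comparison (median 0.04 in both), and 3 and 4 after median centring. Of all tested genes, 47.1% were higher and 20.1% lower with miR-144, and 48.1% and 20.3% with miR-451a. The largest difference in the MIF list was that of Txnip, a redox regulator, with means of 77.0, 231 and 218 FPKM (1.59 and 1.47, adjusted p = 1.01e-07 and 2.31e-07), and Prdx1, a peroxiredoxin that binds MIF, rose from 143 to 186 and 182 FPKM (0.36 and 0.34, adjusted p = 0.000253 and 0.000415).

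Igf1 (ENSMUSG00000020053, chromosome 10, 87858265 to 87937042, plus strand) encodes insulin-like growth factor 1, a ligand made by hepatocytes and by macrophages. Control samples had 106, 114, 98.4, 103 and 110 FPKM, miR-144 samples 68.2, 67.1, 67.6, 64.9 and 67.4 FPKM, and miR-451a samples 67.1, 66.2, 63.7, 62.9 and 66.1 FPKM. The lowest control sample was well above the highest sample of either miRNA group, and the spread within those groups was narrow. From 106 ± 6.23 FPKM (SD, n = 5) Igf1 fell by 36.9% with miR-144 (−0.66 ± 0.04, SE, adjusted p = 5.04e-10) and fell by 38.7% with miR-451a (−0.70 ± 0.04, adjusted p = 2.36e-10, limma). An antisense gene, Igf1os, overlaps Igf1, and whether the counting used strand was not given in the sources used here. The hepatocyte marker Alb was at 0 in every sample.

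Of the IGF receptors, Igf1r was higher and Igf2r lower in both miRNA groups. Insr, the insulin receptor, was called higher in both (means of 3.92, 5.52 and 6.39 FPKM), with control and miR-144 samples overlapping. Igf1r, the signalling receptor, had 1.10 to 1.31 FPKM in control, 2.002 to 2.75 in miR-144 and 2.15 to 2.87 in miR-451a samples, with no overlap with control (0.59 and 0.67, adjusted p = 1.7e-06 and 4.24e-07, limma). Igf2r, which clears IGF2 and carries lysosomal enzymes, fell from 53.6 ± 1.41 FPKM to 33.8 ± 1.06 and 31.9 ± 1.501 (SD, n = 5, adjusted p = 2.61e-10 and 5.96e-11, limma).

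Of the binding proteins, which hold IGFs in the extracellular space, Igfbp4, Igfbp5 and Igfbp7 differed between groups, and Igfbp6, also past the filter, was not called (means of 1.07, 1.13 and 1.33 FPKM). Igfbp4 had 8.09, 8.03, 6.72, 5.97 and 8.27 FPKM in control, 39.3, 83.1, 83.3, 84.3 and 80.9 FPKM in miR-144 and 92.5, 80.7, 89.0, 86.3 and 83.0 FPKM in miR-451a samples. Its rise was 3.12 ± 0.17 and 3.38 ± 0.17 on the log2 scale (SE, adjusted p = 3.94e-10 and 1.43e-10). Igfbp5 had 39.1, 35.1, 36.3, 26.8 and 32.8 FPKM in control, 2.06, 1.93, 0.801, 1.20 and 1.40 FPKM in miR-144 and 4.51, 2.63, 1.69, 1.89 and 4.27 FPKM in miR-451a samples. It differed by −3.84 ± 0.20 and −3.18 ± 0.20 (adjusted p = 2.41e-10 and 2e-09). For both genes no sample of a miRNA group reached the control range.

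Igfbp7 rose from 17.9 to 36.2 and 36.4 FPKM (0.96 and 0.98, adjusted p = 4.56e-05 and 3.39e-05, limma). Of 17 genes in the IGF axis list 8 passed the filter, with 4 higher and 3 lower in each comparison (medians 0.22 and 0.39), beside 47.1% and 20.1% of all tested genes with miR-144 and 48.1% and 20.3% with miR-451a. After median centring 3 were higher and 3 lower with miR-144 and 4 and 3 with miR-451a.

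**Figure D2:**
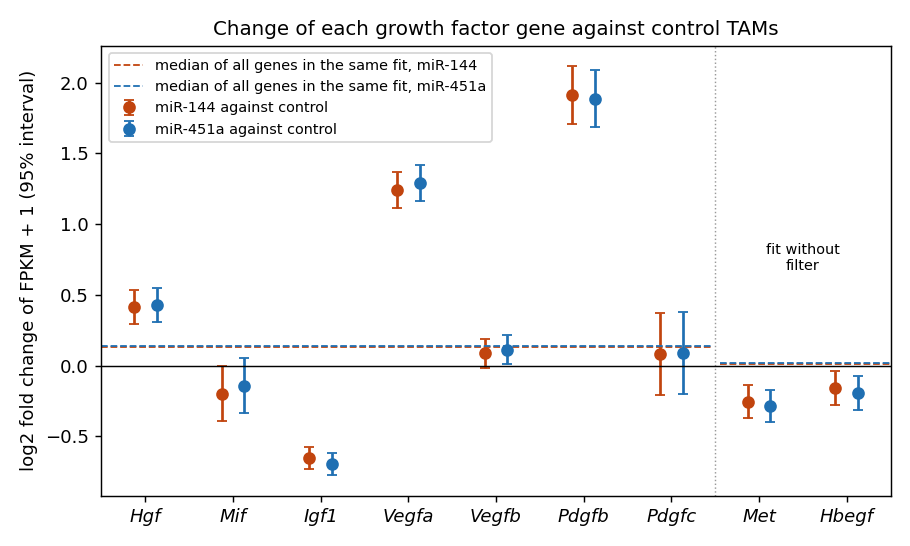
Log2 fold change of FPKM + 1 (vertical axis) of 9 growth factor genes in TAMs from miR-144 and miR-451a tumors against control TAMs, with points for the limma estimate, bars for its 95% interval and dashed lines for the median of all genes in the same fit (0.13 and 0.14 for the 7 genes past the filter, 0.01 and 0.02 for Met and Hbegf, at the right). Pdgfb and Vegfa lie far above the dashed lines, Hgf lies above them, Vegfb and Pdgfc lie at them, and Igf1 lies lowest.

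Vegfa (ENSMUSG00000023951, chromosome 17, 46016993 to 46032369, minus strand), the main angiogenic ligand of its family, was higher in every sample of both miRNA groups. Control samples had 6.23, 6.69, 5.51, 6.12 and 6.05 FPKM, miR-144 samples 18.2, 15.4, 14.6, 14.7 and 16.4 FPKM, and miR-451a samples 16.3, 15.3, 15.6, 17.9 and 16.8 FPKM. The gap between the highest control sample and the lowest sample of either miRNA group was wider than the whole range of any group. The mean rose from 6.12 ± 0.420 to 15.9 ± 1.47 with miR-144 and 16.4 ± 1.01 with miR-451a (SD, n = 5), 2.59 and 2.68 times control. The log2 fold changes were 1.24 ± 0.06 (adjusted p = 8.61e-11) and 1.29 ± 0.06 (adjusted p = 5.23e-11, limma), higher than those of 97.1% and 97.2% of tested genes.

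Vegfb (ENSMUSG00000024962, chromosome 19, 6982473 to 6987651, minus strand), a relative that binds FLT1 and not KDR, differed little from control. Control samples had 16.5, 15.5, 15.7, 14.6 and 16.4 FPKM, miR-144 samples 16.9, 17.8, 14.9, 17.2 and 17.1 FPKM, and miR-451a samples 16.5, 16.6, 18.0, 16.5 and 17.9 FPKM. The miR-144 range overlapped with control, and the miR-451a samples met the top of the control range. The difference was 0.09 ± 0.05 with miR-144 (adjusted p = 0.123) and 0.11 ± 0.05 with miR-451a (SE, adjusted p = 0.0497, limma). The second is past the threshold but below the median of all tested genes, its sign turned after median centring (−0.03), and the call was lost in several alternatives, including those without control sample 2, 3 or 4, miR-144 sample 1, 4 or 5, or miR-451a sample 2, 3 or 5 (adjusted p up to 0.129). Within a sample Vegfa was 0.389 ± 0.0338 times Vegfb in control, 0.947 ± 0.0901 times in miR-144 and 0.961 ± 0.0806 times in miR-451a TAMs (SD, n = 5).

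The VEGF receptor Flt1, which binds both VEGFA and VEGFB, was nearly gone from the miRNA groups. Control samples had 6.27, 6.79, 6.56, 6.68 and 6.02 FPKM, miR-144 samples 0.0502, 0.0414, 0.0163, 0.0511 and 0.0239 FPKM, and miR-451a samples 0.0659, 0.0413, 0.0642, 0.0120 and 0.0412 FPKM. The fall was −2.85 ± 0.04 and −2.84 ± 0.04 on the log2(FPKM + 1) scale (SE, adjusted p = 5.7e-17 and 5.6e-17, limma), a scale that understates it at such low levels. The 8 endothelial markers summed to 45.7 to 50.4 FPKM in control, 10.7 to 12.8 in miR-144 and 10.7 to 13.5 in miR-451a samples. The fall of this sum was that of Vwf, with 41.8 to 46.4, 6.01 to 7.82 and 6.04 to 7.65 FPKM. Kdr, also in the list, was called higher in both miRNA groups. Pecam1 and Cdh5 had means of 0.162 and 0.0933 FPKM over all samples, and 1 of the 8 was at 0 throughout. The part of endothelial cells in the Flt1 difference was not tested.

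Kdr, the main signalling receptor for VEGFA, had means of 2.80, 3.84 and 4.07 FPKM (0.35 and 0.40, adjusted p = 0.00272 and 0.000807), and the call with miR-144 was lost after quantile normalization (0.19, adjusted p = 0.0752). Nrp1, a co-receptor for VEGFA and semaphorins, rose from 14.5 ± 0.514 FPKM to 32.5 ± 3.12 and 33.3 ± 2.01 (SD, n = 5), by 1.11 and 1.15 on the log2 scale (adjusted p = 1.91e-10 and 1.21e-10). Nrp2 fell from 48.5 ± 0.631 FPKM to 42.2 ± 0.822 and 42.0 ± 0.881 (−0.20 in both, adjusted p = 2.54e-06 and 1.72e-06). The other ligands Vegfc, Vegfd and Pgf had group means of at most 0.824 FPKM.

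Of 16 genes in the VEGF axis list 11 passed the filter, with 6 higher and 3 lower in each comparison (medians 0.11 and 0.11), or 5 and 4 after median centring. The shares over all tested genes were 47.1% higher and 20.1% lower with miR-144 and 48.1% and 20.3% with miR-451a. Epas1, the hypoxia factor HIF2A, fell from 11.8 to 4.14 and 4.61 FPKM (−1.31 and −1.19, adjusted p = 1.78e-10 and 5.27e-10). Hif1a rose from 13.7 to 18.4 and 18.3 FPKM (0.40 and 0.39, adjusted p = 1.83e-06 and 1.99e-06), and Thbs1, an angiogenesis inhibitor, rose from 55.6 to 95.1 and 105 FPKM (0.77 and 0.91, adjusted p = 1.41e-06 and 2.1e-07).

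Vegfa is a known target of hypoxia-inducible factors. Of 13 other tested hypoxia and glycolysis targets 4 were higher and 7 lower with miR-144 (median −0.22), beside 47.1% and 20.1% of all tested genes. With miR-451a 5 were higher and 7 lower (median −0.17), beside 48.1% and 20.3%, and after median centring 3 were higher and 8 lower in each. The part of these factors in the Vegfa difference was not tested. Ndrg1, a stress-response gene, rose from 5.87 to 17.2 and 17.7 FPKM (1.41 and 1.44, adjusted p = 9.51e-13 and 6.68e-13), and Pdk1, which limits entry of pyruvate into mitochondria, rose from 3.89 to 7.09 and 7.88 FPKM (0.72 and 0.86). Ldha, the lactate dehydrogenase of glycolysis, fell from 177 to 105 and 103 FPKM (−0.76 and −0.77, adjusted p = 1.89e-09 and 1.46e-09).

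Pdgfb (ENSMUSG00000000489, chromosome 15, 79995874 to 80014977, minus strand), the ligand that recruits pericytes through PDGFRB, had the largest difference of the 10 genes. Control samples had 0.912, 1.10, 1.27, 1.11 and 1.16 FPKM, miR-144 samples 6.23, 6.04, 7.97, 8.58 and 6.19 FPKM, and miR-451a samples 6.41, 6.02, 7.63, 7.90 and 6.22 FPKM. No control sample came near either miRNA group, and samples 3 and 4 were the highest in each of those groups. The mean was 1.11 ± 0.130 FPKM in control, 7.0 ± 1.18 with miR-144 and 6.84 ± 0.866 with miR-451a (SD, n = 5), 6.30 and 6.15 times control. The rise was 1.91 ± 0.09 (adjusted p = 1.13e-10) and 1.89 ± 0.09 (SE, adjusted p = 1.23e-10, limma), higher than those of 99.2% and 99.1% of tested genes. Platelets are another known source of PDGFB. The 7 platelet markers summed to 11.4 to 19.7 FPKM in control, 8.25 to 15.04 in miR-144 and 8.12 to 17.0 in miR-451a samples, with none at 0 in every sample. Most of that sum was Pf4, which was called lower in both miRNA groups (means of 12.5, 6.65 and 7.32 FPKM). The other markers of the list were at lower levels. Among them Treml1 (1.62, 2.41 and 2.85 FPKM) and Itga2b (0.248, 0.390 and 0.505 FPKM) were called higher in both comparisons, Gp9 with miR-144 and Ppbp with miR-451a, and Gp1bb and Gp5 were called in neither. The part of platelets in the Pdgfb difference was not tested.

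Pdgfc (ENSMUSG00000028019, chromosome 3, 81036416 to 81214040, plus strand), a ligand that acts mainly through PDGFRA, was not called. It had 2.41, 2.50, 3.12, 2.61 and 2.33 FPKM in control, 2.75, 2.39, 3.41, 3.57 and 2.06 FPKM in miR-144 and 2.87, 2.44, 3.46, 3.71 and 1.87 FPKM in miR-451a samples. All groups overlapped, with the lowest and the highest values in the miR-451a group. The difference was 0.08 ± 0.13 (95% interval −0.21 to 0.37, adjusted p = 0.613) and 0.09 ± 0.13 (−0.20 to 0.38, adjusted p = 0.577, limma), and its sign turned after median centring and quantile normalization. Antisense genes overlap both Pdgfb (Gm41361) and Pdgfc (Gm16000).

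Pdgfa, the ligand most abundant in control TAMs within this family, moved opposite to Pdgfb. It had 17.1, 17.5, 15.5, 15.3 and 18.4 FPKM in control, 7.49, 7.45, 5.33, 6.20 and 7.50 FPKM in miR-144 and 6.43, 4.97, 5.28, 5.63 and 6.72 FPKM in miR-451a samples. No sample of a miRNA group reached the control range (−1.19 ± 0.09 and −1.39 ± 0.09, SE, adjusted p = 2.12e-08 and 3.5e-09, limma). Within a sample Pdgfb was 0.0668 ± 0.0110 times Pdgfa in control, 1.07 ± 0.340 times in miR-144 and 1.20 ± 0.234 times in miR-451a TAMs (SD, n = 5), so the ligands were at similar levels there. This ratio and that of Vegfa to Vegfb were chosen after the values were seen and were not tested.

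**Figure D3:**
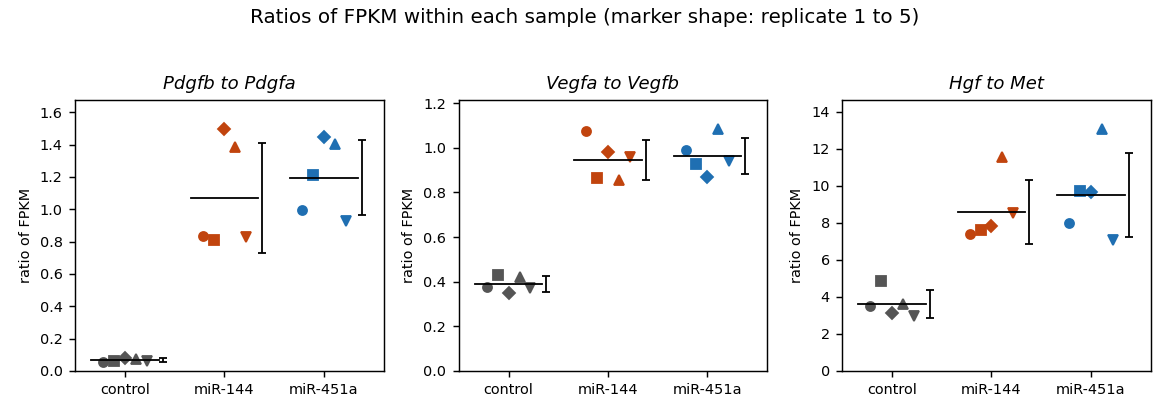
Ratio of FPKM within each sample for Pdgfb to Pdgfa, Vegfa to Vegfb and Hgf to Met (vertical axes, no unit) in the control, miR-144 and miR-451a groups, with marker shape for the replicate number, a line for the mean and a bar for the SD of 5 samples. All 3 ratios are lower in every control sample than in every sample of either miRNA group, with Pdgfb to Pdgfa at a mean of 0.0668 in control and 1.07 and 1.20 in the miRNA groups.

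Pdgfrb, the receptor for PDGFB, ranged from 2.46 to 3.10 FPKM in control, 4.998 to 7.78 in miR-144 and 6.15 to 7.66 in miR-451a samples (0.97 ± 0.10 and 1.07 ± 0.10, SE, adjusted p = 7.11e-07 and 2.38e-07). It is also among the stellate cell and fibroblast markers counted above, and their part in the difference was not tested. Pdgfra had means of 2.33, 2.93 and 3.05 FPKM (0.24 and 0.29, adjusted p = 0.0234 and 0.00879, limma), calls that were lost after median centring (0.11 and 0.15) and quantile normalization. Furin, a convertase that processes PDGF precursors, fell from 32.2 to 21.6 and 22.0 FPKM (−0.56 and −0.54, adjusted p = 4.08e-05 and 6.01e-05). Of 6 tested genes in the PDGF axis list 3 were higher and 2 lower in each comparison (medians 0.09 and 0.10), or 2 and 3 after median centring, beside 47.1% higher and 20.1% lower with miR-144 and 48.1% and 20.3% with miR-451a over all tested genes.

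Hbegf (ENSMUSG00000024486), which encodes a membrane-anchored ligand of EGFR, was at the lower end of detection. Control samples had 0.452, 0.457, 0.470, 0.682 and 0.528 FPKM, miR-144 samples 0.362, 0.241, 0.411, 0.421 and 0.365 FPKM, and miR-451a samples 0.291, 0.327, 0.233, 0.481 and 0.306 FPKM. The miR-144 samples were all below control, and miR-451a sample 4 lay within the control range. The differences were −0.16 ± 0.06 (adjusted p = 0.0431) and −0.19 ± 0.06 (SE, adjusted p = 0.014, limma without filter) on the same log2(FPKM + 1) scale, which understates them, with an implied 10.2 to 38.5 fragments per sample. The call with miR-144 was lost without control sample 3, 4 or 5, miR-144 sample 1, 2 or 5, or miR-451a sample 1, 2 or 5 (adjusted p up to 0.111).

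Areg (ENSMUSG00000029378, chromosome 5, 91139599 to 91148432, plus strand), amphiregulin, a ligand of EGFR that myeloid cells can release, was listed at 0 in all 15 samples. At these depths 3 fragments correspond to at most 0.159 FPKM, so a level below that was not detectable, counting error only. EGFR itself had 0.603 to 0.913 FPKM over all samples and was not called (−0.05 and −0.00, adjusted p = 0.578 and 1, limma without filter), and Erbb4 was above 0 in a single sample.

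The EGF axis list had 20 genes in the table and 7 past the filter, of which 1 was higher and 3 lower with miR-144 (median −0.07) and 1 higher and 2 lower with miR-451a (median 0.04), or 1 and 3 in each after median centring. The background over all tested genes was 47.1% higher and 20.1% lower with miR-144 and 48.1% and 20.3% with miR-451a. None of its 9 further ligands had a mean of 1 FPKM. Cd9, a tetraspanin that binds the HB-EGF precursor, fell from 323 ± 8.45 FPKM to 78.5 ± 10.7 and 74.5 ± 8.09 (SD, n = 5), by −2.04 and −2.11 on the log2 scale (adjusted p = 2.08e-11 and 1.3e-11). The inactive rhomboids, which guide the sheddase ADAM17 to the cell surface, went in opposite directions. Rhbdf2 fell from 22.5 to 12.2 and 11.9 FPKM (−0.84 and −0.87, adjusted p = 6.14e-10 and 4.08e-10), and Rhbdf1 rose from 1.03 to 2.03 and 2.31 FPKM (0.58 and 0.70, adjusted p = 5.87e-06 and 6.68e-07).

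**Figure D4:**
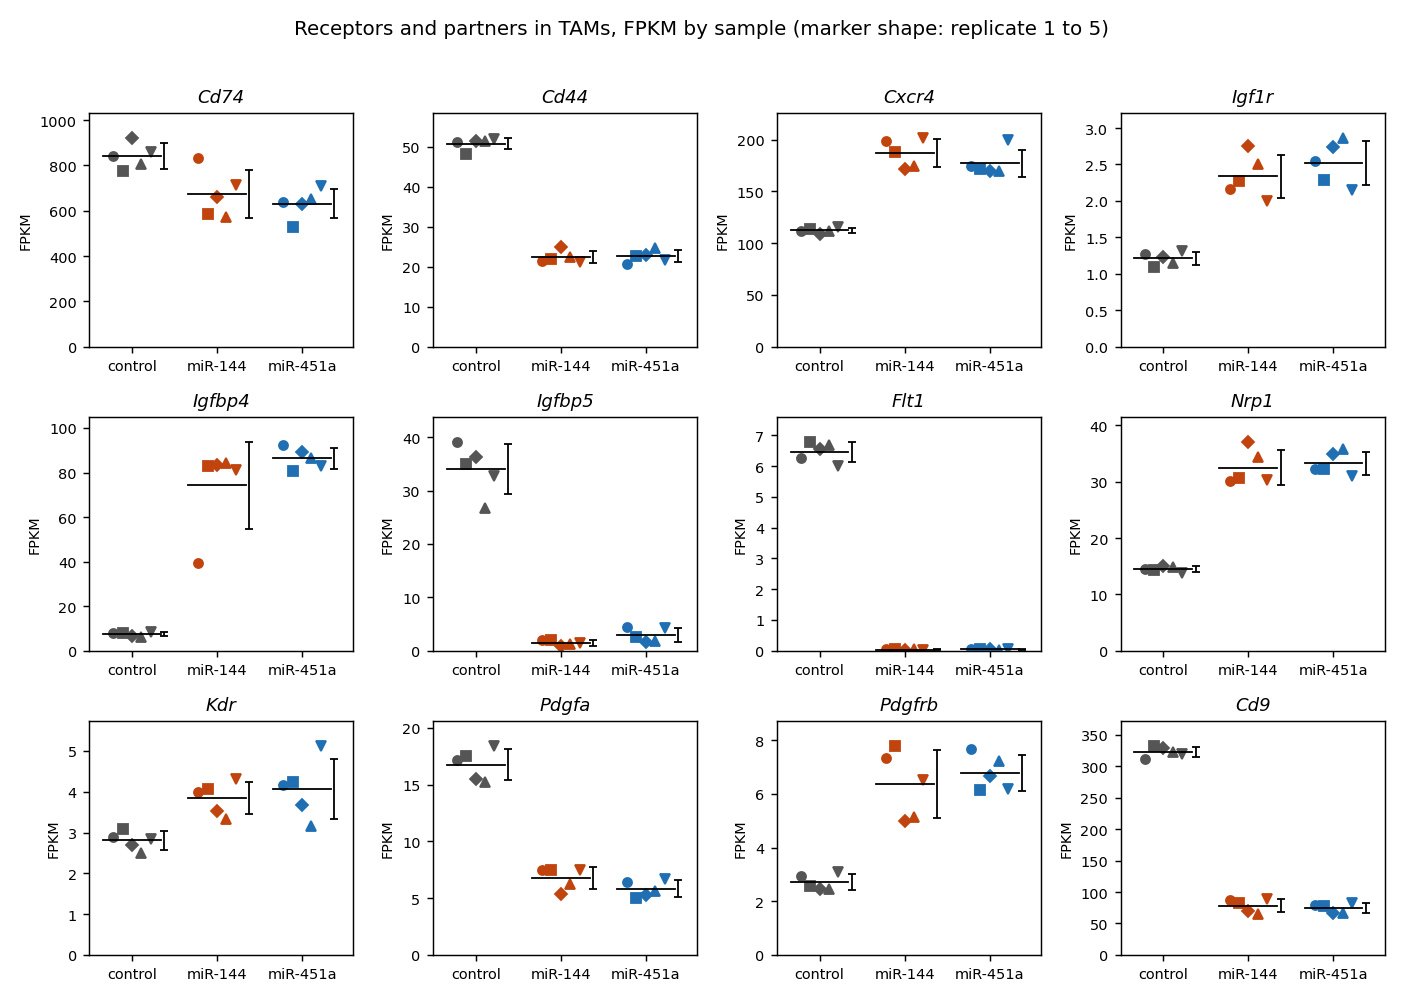
Level in FPKM (vertical axes) of 12 receptors and partners of these growth factors in each sample of the control, miR-144 and miR-451a groups, with marker shape for the replicate number, a line for the mean and a bar for the SD of 5 samples. Flt1, Igfbp5, Pdgfa, Cd44 and Cd9 are lower and Igfbp4, Igf1r, Nrp1, Kdr, Pdgfrb and Cxcr4 higher in every miRNA-group sample than in every control sample, and Cd74 overlaps between control and miR-144. The share of all genes that stand apart in this way was not computed. Of all tested genes 67.2% (miR-144) and 68.3% (miR-451a) were called against control.

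TAMs from miR-451a and miR-144 tumors were then set against each other. None of the 7 tested members was called, beside 0% of the 11419 tested genes (smallest adjusted p = 0.0752, with 596 genes at an unadjusted p under 0.05, limma). The log2 difference (miR-451a minus miR-144) was 0.01 for Hgf (95% interval −0.11 to 0.13), −0.04 for Igf1 (−0.12 to 0.04), 0.05 for Vegfa (−0.08 to 0.18) and −0.02 for Pdgfb (−0.23 to 0.18). For Mif it was 0.06 (−0.14 to 0.25). Each of these intervals is narrower than 0.5 on the log2(FPKM + 1) scale and holds 0, which does not show that the groups are alike. For Vegfb the difference was 0.03 and for Pdgfc 0.01. Pdgfc varied more between samples, and leaving out single samples moved its difference from −0.0694 to 0.11, so no such bound is given for it. For Met the difference was −0.03 (−0.15 to 0.08) in the fit without filter. At these levels the scale understates a change and narrows its interval, so this interval gives no close bound. The same scale understates, to a smaller degree, the differences of Hgf and of other genes at a few FPKM. Both comparisons with control share the same 5 control samples, so the side-by-side values above are not independent of each other.

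Single-gene exact permutation tests over the samples (two-sided, 252 splits of 5 against 5) gave p = 0.00794, the smallest they can give, for Hgf, Met, Igf1, Vegfa and Pdgfb in both comparisons with control and for Hbegf with miR-144. They gave exact permutation p = 0.103 and 0.151 for Mif, 0.151 and 0.0159 for Vegfb, 0.524 and 0.540 for Pdgfc, and 0.0317 for Hbegf with miR-451a, in the order miR-144 and miR-451a. The smallest p arises whenever the samples of the 2 groups do not overlap. The share of all tested genes that reach it was not computed. Of these genes 67.2% (miR-144) and 68.3% (miR-451a) were called against control by limma, so it does not set the members apart.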

How the data were processed

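TAM RNA was sequenced on an Illumina HiSeq instrument in 15 samples, 5 per group, with groups and sample numbers taken from the labels. The authors deposited FPKM per gene and sample. The submitters' processing notes name FastQC 0.11.2, STAR and StringTie, with no role or settings, and the genome build, annotation and strandedness were not given in the sources used here. FPKM depends on the transcript models and on a few abundant genes, so a shift of all genes can come from either.

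Levels were used as deposited. Differences between groups were fitted on log2(FPKM + 1) with limma (version 3.58.1, R 4.3.3), all 3 groups together and with trend in the empirical Bayes step, and p-values were adjusted by Benjamini-Hochberg across the 11419 genes whose mean reached 1 FPKM. Members under that filter were taken from a fit over 29540 genes. FPKM is not a count, and depth was estimated from steps between low values, of which 38.2% to 50.7% lay within 5% of a step (10% by chance), so reads were not recovered. Coordinates are those of GENCODE M21 on GRCm38, where 99.7% of the gene identifiers occur. The fit was tested on simulated data. Named were all members, each direct receptor, each further ligand whose mean reached 1 FPKM, and up to 3 other genes of each partner list with the largest change among those called in both comparisons. The members and lists were chosen with earlier results of these data known. Igf2r, Insr, Igfbp6, the marker genes named and the genes of the closing part were added after their values were seen, as were the scaling alternatives for partner genes. Alternatives were the pseudocount, filter, scaling, replicate block, trend, 2-group fits, and leaving out each sample.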

Additional observations from a re-analysis of the deposited data

Results flagged for a closer look

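Of 70 gene and group combinations of members and direct receptors examined, 4 had a sample far from the other 4 of its group, where chance alone gives about 3.5. Cxcr4 reached 199 FPKM in miR-451a sample 5, and the next highest sample of that group had 175 FPKM. Cxcr2 was above 0 in a single sample of each miRNA group, at 0.0184 FPKM in miR-144 sample 2 and 0.0153 FPKM in miR-451a sample 2. Erbb4 was above 0 only in control sample 1, at 0.00277 FPKM. The Cxcr2 and Erbb4 values are too low to carry a comparison.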

How the results depend on the processing

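In both comparisons with control, Hgf, Met, Igf1, Vegfa and Pdgfb kept their direction and their call under every alternative that tested them. With a filter at a mean of 5 FPKM the members called were 2 with miR-144 and 3 with miR-451a, because fewer members were tested, beside 71.9% and 72.6% of the 6639 genes tested. Leaving out each sample in turn gave 4 to 5 members called with miR-144, 4 to 5 with miR-451a and 0 to 0 between the miRNA groups, beside 64.7 to 67.3%, 66.0 to 68.5% and 0 to 0.0175% of all tested genes. Median centring reversed Vegfb (−0.0476 with miR-144, −0.0328 with miR-451a) and Pdgfc (−0.0527, −0.0553, and −0.00261 between the miRNA groups). Quantile normalization reversed Pdgfc (−0.0818, −0.0818, and −5.28e-06 between the miRNA groups). The cause was not tested.

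The call of Vegfb with miR-451a was lost with a pseudocount of 0.1 (adjusted p = 0.05001, limma), no filter (0.0841), quantile normalization (0.595) and no trend (0.0545), and it ranged from 0.0181 to 0.129 when single samples were left out. With miR-144, Vegfb was called after rescaling to TPM (0.16, adjusted p = 0.0127) and without miR-144 sample 3 (0.13, adjusted p = 0.0132), and Mif was called without control sample 4 (−0.24, adjusted p = 0.0352). Hbegf with miR-144 was not called with a pseudocount of 0.1 or after rescaling to TPM (adjusted p = 0.0713 and 0.0935) and ranged from 0.0211 to 0.111 when single samples were left out. Between the miRNA groups, where nothing was called, leaving out single samples moved Hgf from −0.0274 to 0.0464, Vegfb from −0.0155 to 0.0462, Pdgfb from −0.0725 to 0.0433 and Pdgfc from −0.0694 to 0.10996.

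The sample numbers shared by the groups were not treated as pairs. Deviations of same-numbered samples correlated at −0.127 to 0.108 between control and miR-144, 0.0658 to 0.264 between control and miR-451a and −0.150 to 0.241 between the miRNA groups. The means were −0.0122, 0.140 and 0.101 in that order, against 0.00312, −0.0347 and −0.0251 for samples with different numbers. Of the 5 same-numbered pairs 1, 3 and 4 exceeded 0.1, so a shared factor by number is not excluded. With the replicate block 4 members were called with miR-144, 4 with miR-451a (Vegfb lost, 0.11, adjusted p = 0.0687) and 0 between the miRNA groups, beside 67.5%, 68.8% and 0% of all tested genes. Depth limits Met, Hbegf and Areg, and at the highest floor 3 fragments are 0.0284, 0.0813 and 0.159 FPKM.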

Other observations

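Genes of the partner lists below the filter, picked after their values were seen, included enzymes that act on these ligands. Hpn, the protease hepsin that can activate pro-HGF, had means of 0.437, 1.31 and 1.25 FPKM in control, miR-144 and miR-451a TAMs (0.68 and 0.65, adjusted p = 1.56e-08 and 2.65e-08, limma without filter). Pappa, a protease that cleaves IGFBP4, had means of 0.149, 1.43 and 1.27 FPKM (1.07 and 0.97, adjusted p = 6.74e-07 and 1.86e-06). Nrg4, a ligand of ERBB4, had means of 0.540, 0.227 and 0.223 FPKM (−0.33 in both, adjusted p = 2.96e-06 and 2.41e-06).

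Samples 3 and 4 held the highest Pdgfb and Pdgfc of both miRNA groups. For Pdgfc, but not Pdgfb, this held in control too. Other genes, picked after their values were seen, were highest in samples 3 and 4 of all 3 groups. They included Pf4, Plau, Cd5l, Cd4, Mertk and Gab1. In each miRNA group samples 3 and 4 were also the pair with the smallest median absolute log2 difference (0.0800 with miR-144, 0.0733 with miR-451a). In control that pair was samples 1 and 5 (0.0702). Pf4, a chemokine of platelets and monocytic cells, had 10.98, 9.31, 15.5, 16.9 and 9.73 FPKM in control, 4.77, 4.82, 8.77, 10.9 and 4.0 FPKM in miR-144 and 4.30, 4.90, 11.1, 12.8 and 3.48 FPKM in miR-451a samples. Plau, urokinase, had 3.53, 3.96, 4.71, 5.31 and 3.92 FPKM in control, 5.58, 5.27, 8.48, 8.73 and 4.98 FPKM in miR-144 and 5.59, 6.25, 7.70, 8.44 and 5.11 FPKM in miR-451a samples. The labels do not say what samples with the same number share.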
